A study of Mus musculus with 8 samples.

Results

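Shootin 1 (Shtn1), the 4 members of the L1 family of adhesion molecules (L1cam, Nrcam, Nfasc and Chl1) and the contactins Cntn1 and Cntn2 were examined in the cortex of Ptbp2 knockout and wild type mouse embryos on Affymetrix mouse exon arrays. Members were the probe sets whose platform annotation gave exactly 1 gene symbol and that symbol was one of these 7 genes. Shtn1 stood in the annotation under its older clone name, 4930506M07Rik. This gave 256 of the 625534 probe sets, with 26 in Shtn1, 31 in L1cam, 52 in Nrcam, 40 in Nfasc, 41 in Chl1, 30 in Cntn1 and 36 in Cntn2. The groups were 4 Ptbp2 knockout and 4 wild type embryos, all taken at embryonic day 18.5 from a mixed CD1 and C57BL/6 background, with 1 array per embryo. The labels name the knockout as Ptbp2 KO and say no more of the allele, the deleted part or the cells it reaches. Ptbp2 is a polypyrimidine tract binding protein of neurons that represses alternative exons.

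Shootin 1 is a cytoplasmic protein of growing axons. In the growth cone it couples the rearward flow of actin filaments, through the actin binder cortactin, to the adhesion molecule L1, so that actin flow is turned into traction and the axon advances. The L1 family are transmembrane proteins with immunoglobulin and fibronectin domains outside the cell and a short tail that binds ankyrins inside it. They bind each other and the contactins, which are related immunoglobulin proteins held in the membrane by a lipid anchor. Several of these genes are known to be alternatively spliced in neurons. The data were therefore read both as the level of a gene, the median of its probe sets on an array, and as the signal of single probe sets relative to that median, which is called usage here.

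Ptbp2 itself was compared first, as a check of the labels. Its gene level was 5.95 ± 0.34 in knockout and 11.20 ± 0.14 in wild type cortex on the log2 scale (SD, n = 4 each), a log2 fold change of -5.25 (SE 0.14, limma adjusted p = 1.7e-12), whose size is not exact because the knockout mean lay below the signal filter given next. The array medians of the deposited values lay between 6.82 and 6.93. In a principal component analysis of the gene levels, knockout 3 and wild type 1 and 3 had the greatest distances from the centre on components 1 and 2, which held 28.9% and 22.6% of the variance. Probe sets whose 8-array mean reached 6.84, the median of the table on the log2 scale, were retained, which kept 250 of the 256 member probe sets. For 2 of the 250, 1 in Nfasc and 1 in Chl1, the mean of one group lay below that filter. All 7 genes kept at least 24 probe sets, so all 7 were tested.

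None of the 7 genes passed the test in level. Shtn1 had the largest difference, about 0.3 log2 units lower in the knockout, with 3 of its probe sets about 0.5 to 0.6 lower. Cntn1 was about 0.2 lower, with all 30 of its probe sets below wild type in mean. L1cam, Chl1 and Cntn2 had differences near 0, and Nrcam and Nfasc lay between. With all 8 arrays, 2 single probe sets, both of Chl1, passed in one of the usage models, and both overlapped between the groups.

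Shtn1 had gene levels of 10.20, 10.23, 10.04 and 10.24 in knockout 1 to 4, against 10.62, 10.35, 10.45 and 10.47 in wild type 1 to 4. All knockout arrays lay below all wild type arrays, with 0.12 between the highest knockout and the lowest wild type array, and knockout 3 was the lowest of all. The means were 10.18 ± 0.090 in knockout and 10.47 ± 0.11 in wild type cortex (SD, n = 4 each). The log2 fold change was -0.29 (SE 0.093), which puts the signal in knockout cortex at 81.5% of that in wild type, with an unadjusted 95% interval of 71.1% to 93.5%. The unadjusted limma p was 0.0061 and the adjusted p over all 12960 genes tested was 0.53, so Shtn1 did not pass. Bulk tissue was measured, so fewer cells of a type and less RNA per cell cannot be told apart. The share of all genes that passed was 0.116%, and the share whose knockout arrays all lay below all wild type arrays was 1.97%. The difference was -0.17 when the mean of the probe sets replaced their median (adjusted p = 0.55).

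**Figure D1:**
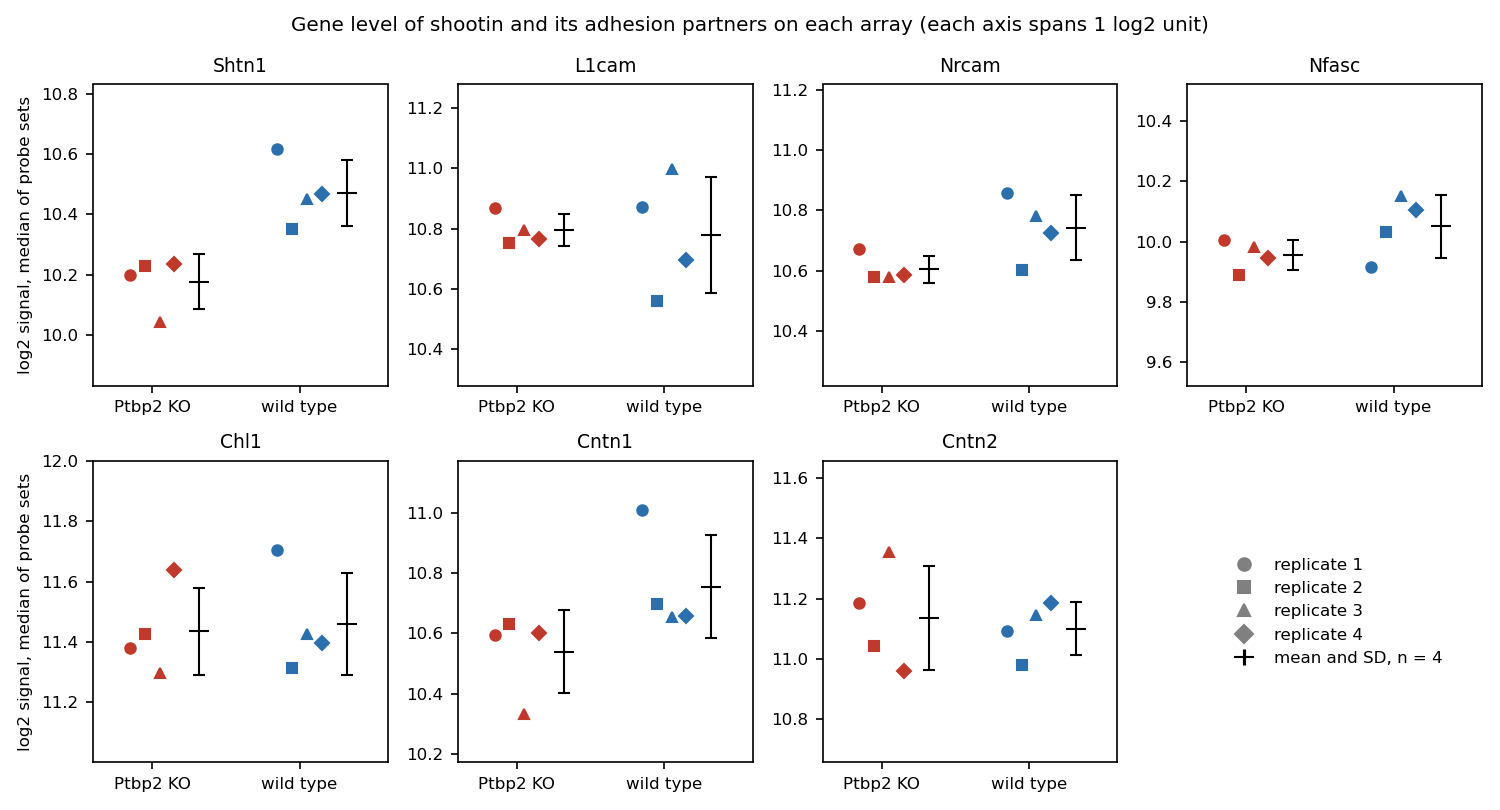
Gene level (log2 signal, median of the retained probe sets) of the 7 genes on each of the 8 arrays, with Ptbp2 KO on the left and wild type on the right of each panel, symbols for the replicate number and bars for the mean and SD (n = 4). The groups do not overlap in Shtn1 (highest knockout 10.24, lowest wild type 10.35) and Cntn1 (10.63 and 10.66), and overlap in the other 5 genes.

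The probe sets of Shtn1 did not move together. Of its 24 retained probe sets 21 were lower and 3 higher in the knockout, with log2 fold changes from -0.61 to 0.25. For comparison, 44.4% of all 312767 retained probe sets of the table had a fold change below 0. The spread of usage differences among its probe sets was an SD of 0.21, higher than in 88.4% of the 12959 genes compared, where the median was 0.14. This is a description, since probe sets of a gene share their arrays.

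The 3 Shtn1 probe sets with the lowest fold changes stood apart from the other 21. They are grouped here after their values were seen, as those below -0.4 with no overlap between groups, so the grouping was not tested. Probe set 4457432 had log2 signals of 10.14, 10.23, 10.22 and 10.22 in knockout 1 to 4, against 10.70, 10.62, 10.89 and 10.88 in wild type 1 to 4. Every knockout array was about 0.4 or more below every wild type array, and the knockout arrays were within 0.1 of each other. The log2 fold change was -0.57 (SE 0.11, limma adjusted p = 0.13), which did not pass, and it was the smallest adjusted p among all member probe sets.

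Probe set 4495080 had 9.64, 9.20, 9.30 and 9.44 in knockout 1 to 4, against 9.91, 9.88, 10.16 and 10.08 in wild type 1 to 4 (log2 fold change -0.61, SE 0.13, limma adjusted p = 0.20). Knockout 1 came nearest to wild type, and the groups did not overlap. Probe set 4675378 had 9.25, 9.21, 9.29 and 9.22 in knockout 1 to 4, against 9.82, 9.63, 9.85 and 9.66 in wild type 1 to 4 (log2 fold change -0.50, SE 0.11, adjusted p = 0.21). The groups were again separate. Of the 3, probe set 4457432 passed when eBayes was run with trend and robust (-0.57, adjusted p = 0.028) and with array weights (-0.62, adjusted p = 0.035), and neither of the other 2 passed in any of 16 alternatives.

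The median of these 3 probe sets was 9.40 ± 0.19 in knockout and 10.01 ± 0.13 in wild type cortex (SD, n = 4 each), a difference of -0.61. On every array but knockout 2 this median is the value of 4495080, the middle of the 3 in signal. It therefore repeats the lowest fold change, where 4457432 was at -0.57 and 4675378 at -0.50. The median of the other 21 was 10.39 ± 0.078 in knockout and 10.52 ± 0.12 in wild type cortex, a difference of -0.14. The 3 were picked for their falls, so a contrast with the other 21 was set by that choice. Another probe set, 4542314, also had no overlap, at 11.42 to 11.56 in knockout and 11.71 to 11.74 in wild type cortex, with a smaller fold change of -0.22. In all, 4 of 24 Shtn1 probe sets had no overlap and were lower, where 1.51% of all retained probe sets did so, and 4 had an unadjusted p under 0.05 and were lower, where 2.59% did so. None passed over all probe sets, where 0.0921% passed. Where these probe sets lie in the gene was not known here, so they cannot be assigned to an exon or to a known form of the protein.

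**Figure D2:**
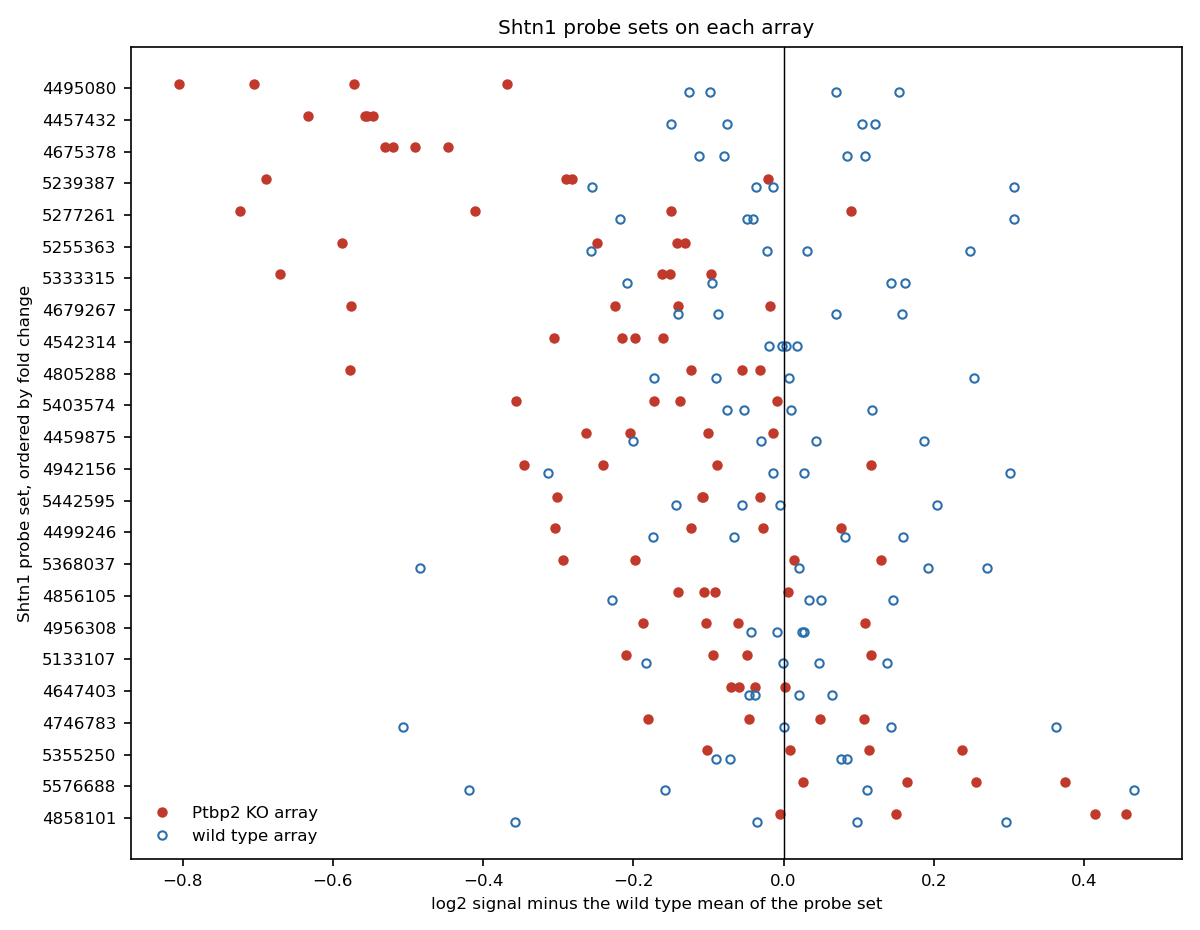
Log2 signal of the 24 retained Shtn1 probe sets on each array minus the wild type mean of that probe set, ordered from the lowest fold change at the top to the highest at the bottom, with filled points for Ptbp2 KO and open points for wild type arrays. The upper 3 probe sets (4495080, 4457432 and 4675378) have all knockout points below all wild type points, and most of the other rows overlap.

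Relative to the Shtn1 median, the most raised probe set was 4858101. Its log2 signals were low, at 6.95, 7.41, 7.10 and 7.37 in knockout 1 to 4 and 6.92, 6.59, 7.25 and 7.05 in wild type 1 to 4, so wild type 2 lay below the signal filter and the groups overlapped. Its signal differed by 0.25 while the gene median was lower, and its usage difference was 0.55 (SE 0.15, splicing index adjusted p = 0.90). Probe set 5576688, also near the filter, had a usage difference of 0.50, and 5355250, a bright probe set at 11.45 to 11.79 in knockout and 11.46 to 11.64 in wild type cortex, had 0.36. The most lowered was 4495080, at -0.32 (SE 0.13). With all 8 arrays none of the 24 passed in usage. Without wild type 3, diffSplice called 4858101 (deviation 0.54, adjusted p = 0.034) and 5576688. Of the 24, 8 had an unadjusted splicing index p under 0.05, where 5.27% of all probe sets tested did so. Of these, 6 were raised and 2 lowered. All were taken against the same gene median, which changed by -0.29, while the median of the probe set fold changes was -0.14. Usage was thereby shifted upward for many probe sets together, so the 8 are not separate results. The remaining Shtn1 probe sets, 5456161 and 5541104, were not retained, with log2 signals of 5.41 to 6.66 in knockout and 5.36 to 7.24 in wild type cortex.

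Cntn1, the contactin also called F3, had gene levels of 10.59, 10.63, 10.33 and 10.60 in knockout 1 to 4, against 11.01, 10.70, 10.66 and 10.66 in wild type 1 to 4. The groups did not overlap, but the gap was small, since 3 knockout and 3 wild type arrays lay close together and only knockout 3 was far below and wild type 1 far above them. The log2 fold change was -0.22 (SE 0.11, limma adjusted p = 0.78), and its unadjusted 95% interval ran from -0.44 to 0.011. It was -0.13 without wild type 1 and -0.15 without knockout 3. In contrast to Shtn1, the 30 probe sets of Cntn1 were uniform. All 30 were lower in the knockout, from -0.48 to -0.062, 6 of them without overlap, where 1.51% of all retained probe sets were lower in this way. The SD of their usage differences was 0.10, at the 16.3 percentile of genes. The most lowered in usage was 5520037 (-0.27, SE 0.16) and the most raised 5537757 (0.15, SE 0.080), and neither passed (splicing index adjusted p = 0.92 each). The difference of 5520037 was -0.15 without knockout 3 and -0.38 without wild type 3.

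Cntn2, the contactin also called TAG-1, which marks outgrowing axons of the embryonic cortex, had gene levels of 11.19, 11.04, 11.35 and 10.96 in knockout 1 to 4, against 11.09, 10.98, 11.15 and 11.18 in wild type 1 to 4. The groups overlapped fully, with knockout 3 the highest and knockout 4 the lowest of all arrays. Its fold change on the log2 scale was 0.035 (SE 0.10, limma adjusted p = 0.98), with an unadjusted 95% interval of -0.18 to 0.25. With the mean in place of the median it was -0.027, so its direction is not settled. Its 36 probe sets had fold changes of -0.22 to 0.11, 14 higher and 22 lower, and the SD of their usage differences, 0.077, was the smallest of the 7 genes. The usage extremes were 4995081 (0.075, SE 0.11) and 4373088 (-0.25, SE 0.12). Over left-out arrays 4995081 ranged from 0.0011 without knockout 2 to 0.13 without wild type 3, and 4373088 was at -0.16 without knockout 2.

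L1cam, the shootin 1 partner in the membrane, had gene levels of 10.87, 10.75, 10.79 and 10.76 in knockout 1 to 4, against 10.87, 10.56, 11.00 and 10.69 in wild type 1 to 4. The knockout arrays lay inside the range of the wild type arrays. Between the groups the log2 fold change was 0.015 (SE 0.10, limma adjusted p = 0.99), with an unadjusted 95% interval of -0.20 to 0.23. Over single probe sets 26 of 31 were lower, from -0.37 to 0.079, and the mean of the probe sets gave -0.067, so median and mean differed in sign. The most lowered in usage, 5267355, had 10.24, 10.38, 9.54 and 10.70 in knockout 1 to 4, against 10.77, 10.41, 10.64 and 10.54 in wild type 1 to 4. Knockout 3 was low and knockout 4 lay inside the wild type range, and the usage difference was -0.39 (SE 0.22, splicing index adjusted p = 0.92). That difference was -0.16 without knockout 3 and -0.56 without knockout 4. The most raised was 4566587, at 0.064 (SE 0.10), which was 0.0082 without wild type 3 and 0.14 without wild type 2.

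Nrcam, which links axons to ankyrin and to neuropilin receptors, had gene levels of 10.67, 10.58, 10.58 and 10.59 in knockout 1 to 4, against 10.86, 10.60, 10.78 and 10.73 in wild type 1 to 4. Wild type 2 lay below knockout 1, and the other wild type arrays above all knockout arrays. The log2 fold change was -0.14 (SE 0.090, limma adjusted p = 0.86), with an unadjusted 95% interval of -0.33 to 0.052. Of its 51 retained probe sets 40 were lower and 3 of them did not overlap, beside 1.51% of all retained probe sets, and none was higher without overlap. The lowest was 5529665, at 9.23, 9.17, 8.77 and 9.81 in knockout 1 to 4, against 10.16, 9.47, 9.65 and 9.71 in wild type 1 to 4 (log2 fold change -0.50, SE 0.21, adjusted p = 0.64). Knockout 4 lay above 3 of the wild type arrays there. Its usage difference was -0.36 (SE 0.20), and the most raised probe set, 5305132, was at 0.30 (SE 0.15). The first was -0.21 without knockout 3 and -0.56 without knockout 4, and the second 0.19 without wild type 2. The unretained Nrcam probe set, 4999666, lay at 3.71 to 4.99 in knockout and 4.18 to 5.27 in wild type cortex.

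Nfasc encodes neurofascin, which gathers with ankyrin at the axon initial segment and at nodes and is also made by oligodendrocytes. Its gene levels were 10.01, 9.89, 9.98 and 9.94 in knockout 1 to 4, against 9.91, 10.03, 10.15 and 10.11 in wild type 1 to 4. Wild type 1 was lower than 3 of the knockout arrays, and the other wild type arrays were above all of them. This gave a log2 fold change of -0.095 (SE 0.089, limma adjusted p = 0.93), with an unadjusted 95% interval of -0.28 to 0.095. It was -0.19 with the signal filter at the 75th percentile and -0.061 without wild type 3. Of its 39 retained probe sets 30 were lower, over a range of -0.54 to 0.26, and 3 were lower without overlap, beside the 1.51% of all retained probe sets. The most lowered in usage, 5351626 (-0.45, SE 0.30), had 8.31, 8.72, 7.58 and 8.82 in knockout 1 to 4 and 8.97, 8.25, 9.22 and 9.16 in wild type 1 to 4. Knockout 3 and wild type 2 were the low arrays of their groups, and the groups overlapped. The splicing index difference was -0.18 without knockout 3 and -0.66 without wild type 2. In diffSplice its deviation passed without wild type 2 (-0.67, adjusted p = 0.027), knockout 2 (-0.64, adjusted p = 0.045) or knockout 4 (-0.64, adjusted p = 0.045), and not with all 8 arrays (adjusted p = 0.31). The most raised, 5439947, had a usage difference of 0.36 (SE 0.12, splicing index adjusted p = 0.92). The unretained Nfasc probe set, 5585150, lay at 6.25 to 6.68 in knockout and 6.40 to 7.03 in wild type cortex.

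**Figure D3:**
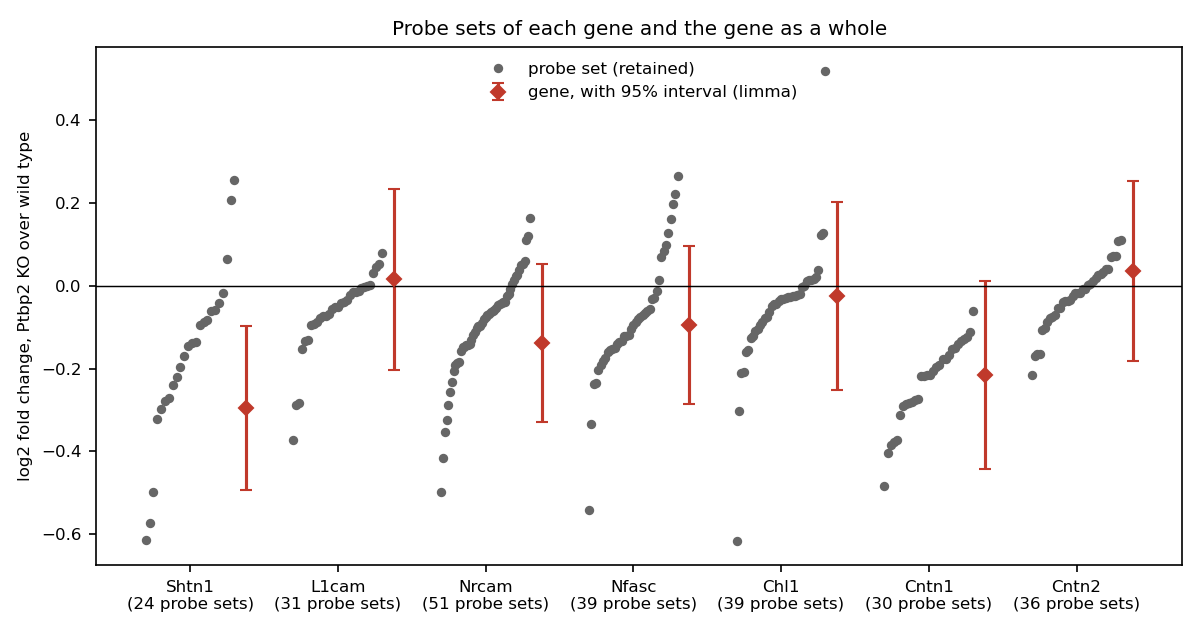
Log2 fold change (Ptbp2 KO over wild type) of each retained probe set, as grey points sorted within each of the 7 genes, and of the gene level, as diamonds with unadjusted 95% intervals from limma. Shtn1 probe sets run from -0.61 to 0.25 with 3 apart at the low end, all 30 Cntn1 probe sets lie below 0, and the Chl1 range is set by single probe sets at -0.62 and 0.52.

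Chl1, the close homolog of L1, had gene levels of 11.38, 11.43, 11.30 and 11.64 in knockout 1 to 4, against 11.70, 11.32, 11.43 and 11.40 in wild type 1 to 4. The groups overlapped, with knockout 4 and wild type 1 the high arrays. The log2 fold change was -0.025 (SE 0.11, limma adjusted p = 0.99), with an unadjusted 95% interval of -0.25 to 0.20, and it was 0.056 without wild type 1. Of its 39 retained probe sets 30 were lower and 9 higher.

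With all 8 arrays, the member probe sets that passed in a usage model were 2 of Chl1, in diffSplice, which assumes 1 spread for all probe sets of a gene. That model called 2 of the 250 member probe sets and 0.212% of all 195604, against 0 of 250 and 0.00869% with the splicing index, which gives each probe set its own spread. Probe set 5521503 had log2 signals of 7.80, 6.52, 7.80 and 7.29 in knockout 1 to 4, against 6.96, 6.56, 6.65 and 7.17 in wild type 1 to 4. Knockout 2 was the lowest of all 8 arrays and lay below the signal filter, as did the wild type mean, so the size is not exact. Its deviation was 0.59 (SE 0.15, limma diffSplice adjusted p = 0.042), and its splicing index difference was 0.54 (SE 0.30, adjusted p = 0.92).

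Probe set 5476453 had 10.27, 10.97, 9.69 and 11.10 in knockout 1 to 4, against 11.39, 10.70, 11.46 and 10.94 in wild type 1 to 4. Knockout 2 and knockout 4 lay inside the wild type range and knockout 1 and knockout 3 below it. Its deviation was -0.58 (SE 0.15, limma diffSplice adjusted p = 0.049), and its splicing index difference was -0.59 (SE 0.25, adjusted p = 0.92). Each of the 2 calls was kept in 3 of 8 fits with 1 array left out. Neither held without wild type 1 (0.58 for 5521503 and -0.54 for 5476453), wild type 3 (0.52 and -0.47), knockout 1 (0.44 and -0.49) or knockout 3 (0.40 and -0.34). The call of 5521503 also ended without wild type 2 (0.54) and that of 5476453 without wild type 4 (-0.63). Neither held without wild type 3 and knockout 3 together (0.33 and -0.22). In the splicing index, 5521503 was at 0.82 without knockout 2 and 0.35 without knockout 3, and 5476453 at -0.37 without knockout 3. With 1 array left out, diffSplice also called member probe sets outside Chl1, Nfasc 5351626 in 3 fits and Shtn1 4858101 and 5576688 in the fit without wild type 3. Of the 2 unretained Chl1 probe sets, 4456124 lay at 6.24 to 7.38 in knockout and 5.07 to 6.36 in wild type cortex, and 4322129 at 6.11 to 6.90 in knockout and 5.87 to 6.35 in wild type cortex. Both had an 8-array mean below the filter, though the highest knockout value of each lay above it. For both, the ranges of the groups overlapped.

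**Figure D4:**
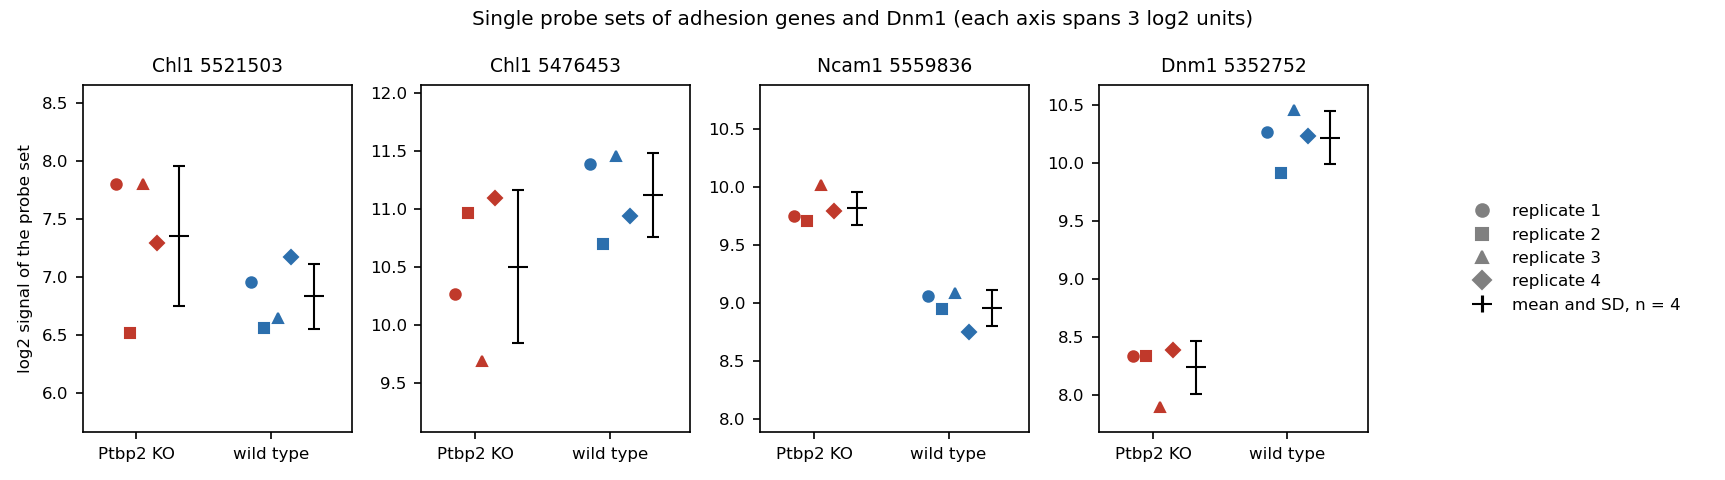
Log2 signal on each array of the 2 Chl1 probe sets that passed in diffSplice and, for scale, of 1 probe set each of the partner genes Ncam1 and Dnm1, with Ptbp2 KO on the left, wild type on the right, symbols for the replicate number and bars for the mean and SD (n = 4). The groups overlap for both Chl1 probe sets and are separate for Ncam1 5559836 (9.70 to 10.02 in knockout, 8.74 to 9.08 in wild type) and Dnm1 5352752 (7.90 to 8.39 in knockout, 9.91 to 10.46 in wild type).

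Across the 7 genes the median log2 fold change was -0.095, against 0.0027 over all genes tested, and 5 of 7 were below 0, as were 49% of all genes. Of the 250 member probe sets 199 were lower and 51 higher, where 44.4% of all retained probe sets had a fold change below 0. Without overlap, 17 were lower and 0 higher, which is 6.8% of the 250 beside the 1.51% of all retained probe sets that were lower in this way, and 10 of the 17 belonged to Shtn1 and Cntn1. Probe sets of 1 gene are not independent, so these counts were not tested. None of the 250 passed in level. An interval of about 0.2 log2 units on either side of the estimate applied to each gene, so the 8 arrays do not exclude smaller differences.

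Genes that work with shootin 1 and the L1 family were then compared from 3 lists, of which 45 of 51 genes were tested. None passed in level, in either direction, and 4 of the 45 were lower and 0 higher at an unadjusted p under 0.05, where 3.79% of all genes tested were lower in this way. Of the actin and guidance partners of shootin 1 (12 tested, 7 higher and 5 lower), the guidance ligand netrin 1, Ntn1, was lowest at -0.35 (SE 0.12, limma adjusted p = 0.56). The GTPases Rac1 (-0.11) and Cdc42 (0.12), and the laminin chain Lama1 (0.074), came next by p. Of the contactin relatives and their receptors (11 tested, 2 higher and 9 lower), Cntnap5a was at -0.33, Cntnap2 at -0.28 and Cntnap4 at -0.20, members of the Caspr family that pairs with contactins, and the contactin receptor Ptprg at -0.12, with adjusted p of 0.66 to 0.90. Of the L1 family partners inside and outside the cell (22 tested, 8 higher and 14 lower), the endocytic dynamin Dnm1 was at -0.24, the repellent Sema3a at -0.22, and the adhesion molecules Ncam1 and Ncam2 at 0.16 and -0.12, with adjusted p of 0.73 to 0.91.

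In usage, 9 of 1212 probe sets of these partners passed in diffSplice, beside 0.212% of all probe sets tested, and 1 in the splicing index, beside 0.00869%. That 1 was in Dnm1, which also gave 2 of the 9. The lists were chosen with earlier results of these data known, so these shares are a description and not a test. Dnm1 probe set 5352752 was at 7.90 to 8.39 in knockout and 9.91 to 10.46 in wild type cortex, with a usage difference of -1.74 (SE 0.12, splicing index adjusted p = 0.0035). Ncam1, an adhesion molecule of the same superfamily as L1, had 3 raised probe sets in diffSplice. Of these, 5559836 was at 9.75, 9.70, 10.02 and 9.79 in knockout 1 to 4, against 9.06, 8.94, 9.08 and 8.74 in wild type 1 to 4. The groups were separate by more than 0.6. Its usage difference was 0.69 (SE 0.11, splicing index adjusted p = 0.38, limma diffSplice adjusted p = 3.9e-04), and those of 5121553 and 5194129 were 0.52 and 0.55. The groups were separate for 5121553 and overlapped for 5194129 (splicing index adjusted p = 0.80 and 0.92). The ankyrin Ank2, which binds the L1 family tail, had a lowered probe set, 4908195, at 9.25 to 9.39 in knockout and 9.79 to 10.26 in wild type cortex (usage difference -0.69, SE 0.13, diffSplice adjusted p = 0.015, splicing index adjusted p = 0.57). The remaining diffSplice calls were single probe sets of Nrp1 (-0.85), Rac1 (-0.69) and Ptprz1 (0.63) and the raised one of Dnm1 (1.20), which are deviations in that model. The groups overlapped for Nrp1, Rac1 and Ptprz1 (splicing index adjusted p = 0.92 each) and were separate for Dnm1 (splicing index adjusted p = 0.066).

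Marker genes of other cells and regions were set beside these values. Of 8 striatal markers tested, all 8 were lower in the knockout and 7 had an unadjusted p under 0.05 (3.79% of all genes were lower at that p), though none passed over all genes (smallest limma adjusted p = 0.085). Their mean level was 8.70, 8.60, 8.41 and 8.77 in knockout 1 to 4, against 9.19, 8.92, 8.89 and 9.10 in wild type 1 to 4. These groups do not overlap, and knockout 3 is lowest and wild type 1 highest, as in Shtn1 and Cntn1. The same arrays were lowest and highest in the interneuron list (means of 9.33 and 9.82), whose groups overlap. Not every gene of the interneuron list had this order, as Lhx6 was lowest in knockout 4. Whether the striatal and interneuron lists reflect the same cells was not tested. Ppp1r1b (-0.48), Tac1 (-0.75), Penk (-0.47) and Ikzf1 (-0.37) led the striatal list. All 7 oligodendrocyte lineage markers tested were lower too, with mean levels of 8.25 to 8.32 in knockout and 8.35 to 8.66 in wild type cortex. None of the 7 passed (smallest limma adjusted p = 0.59). The mean of 8 cortical excitatory neuron markers overlapped, at 10.58 to 10.75 in knockout and 10.57 to 10.79 in wild type cortex. Of these 8 genes 5 were higher and 3 lower. Among them Fezf2, a transcription factor of deep-layer neurons, was at 0.23 (limma adjusted p = 0.79), and Slc17a7, a vesicular glutamate transporter, was at -0.49 without overlap (limma adjusted p = 0.36). The part of these markers in the Shtn1 and Cntn1 differences was not tested.

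**Figure D5:**
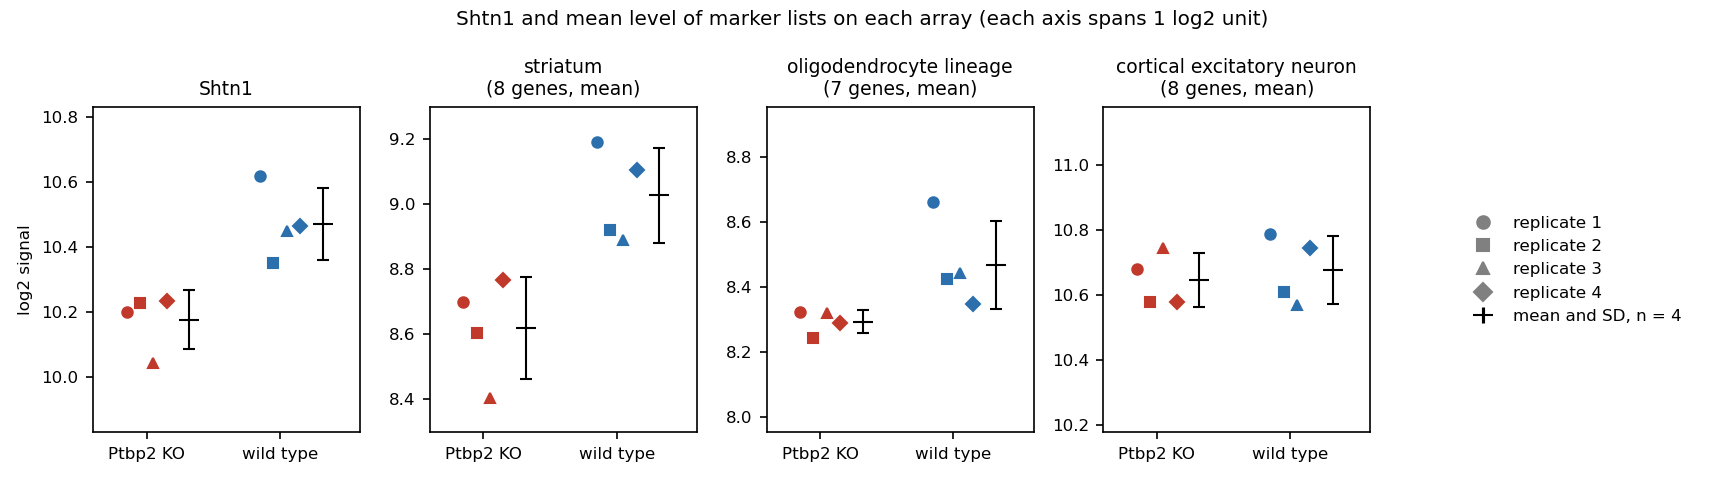
Log2 level of Shtn1 and mean log2 level of 3 marker lists on each array, with Ptbp2 KO on the left, wild type on the right, symbols for the replicate number and bars for the mean and SD (n = 4). Shtn1 and the striatal list (8.41 to 8.77 in knockout, 8.89 to 9.19 in wild type) have no overlap between groups. The oligodendrocyte lineage list has none by a small margin (8.25 to 8.32 and 8.35 to 8.66), and the cortical neuron list overlaps.

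Interneuron markers were lower in 8 of 9 (means 9.33 to 9.68 in knockout, 9.58 to 9.82 in wild type), with Dlx5 at -0.29. Choroid plexus markers were lower in 9 of 9, with knockout 2 at a mean of 7.21 and the other knockout arrays at 8.18 to 8.53, against 8.34 to 8.50 in wild type. Radial glia and progenitor markers were higher in 5 of 8, vessel and meningeal markers in 6 of 7, the 3 microglial markers tested in 3 of 3 with Cd68 at 0.35, and 1 erythroid gene, Alas2, was at 0.25. None of these genes passed over all genes tested.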

How the data were processed

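Total RNA from 8 embryonic cortices was measured on exon arrays, 1 array per embryo. The authors deposited 1 log2 signal per probe set and array. RMA, Affymetrix Expression Console and the mm9 build are named, per the submitters' processing notes, with neither versions nor order. RMA removes differences in total RNA between arrays and compresses low signals. Of 625534 probe sets, 303629 had 1 gene symbol, 5892 several and 316013 none, and older symbols were updated through RefSeq synonyms (GRCm38.p6, used for names only, so no position is given). Probe sets with a mean at or above the table's median (6.84) were retained, and genes with at least 4 were tested.

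Levels and the splicing index (a probe set minus its gene's median) were tested with limma 3.58.1 (lmFit, eBayes; R 4.3.3) without covariates, and p-values were adjusted over the whole table by Benjamini-Hochberg at 0.05. diffSplice, filters, normalizations, variance models and left-out arrays were alternatives. Ptbp2 was left out of usage. The splicing index was the main usage test because it keeps each probe set's own spread. The scripts were tested on simulated data. Members, lists and tests were chosen with earlier results of these data known. Named are all members, each member's most raised and most lowered probe set in usage and any that passed a test, and up to 4 genes per list by p. Further Shtn1 probe sets, single arrays and unretained probe sets were picked with their values in view. The number of arrays limits the precision.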

Additional observations from a re-analysis of the deposited data

Results flagged for a closer look

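In 5 of 42 groups of 4 arrays compared, 1 array lay far from the other 3 of its group. The cutoff is one that chance passes in about 1 in 20 independent groups. That rate does not apply here, because the groups share arrays and the probe sets were picked as the extremes of usage in these data. The count is therefore a description and not a test. For Nrcam in level, knockout 1 was at 10.67 and the other knockout arrays at 10.58 to 10.59. For Cntn1 in level, knockout 3 was at 10.33 and the other knockout arrays at 10.59 to 10.63. Also for Cntn1, wild type 1 was at 11.01 and the other wild type arrays at 10.66 to 10.70. For Nfasc probe set 5351626, the difference from the gene median was -1.78 in wild type 2 and -0.95 to -0.93 in the other wild type arrays. For Chl1 probe set 5521503, it was -4.23 in wild type 4 and -4.78 to -4.74 in the other wild type arrays.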

How the results depend on the processing

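No member gene passed in level under any alternative run, and no member probe set passed with the splicing index under any. One member probe set, 4457432 of Shtn1, passed in level with eBayes trend and robust and with array weights (1 each, against 0 otherwise), and 2 passed in usage when diffSplice replaced the splicing index. With 1 array left out, the number of diffSplice calls among members was 0 to 3, and without wild type 3 and knockout 3 together, chosen after seeing the data, it was 2, both in Shtn1 (none of them Chl1). Shtn1 was between -0.33 and -0.17 in level over 18 alternatives (adjusted p = 0.14 to 0.95), and Cntn1 between -0.25 and -0.13. L1cam turned to -7e-04 with the filter at the 75th percentile and to -0.067 with the mean over probe sets, with -0.059 to 0.087 over left-out arrays. Chl1 turned to 0.037 with array weights and to 0.0094 without wild type 3 and knockout 3, with -0.092 to 0.056 over left-out arrays. Cntn2 turned to -0.028 with array weights, -0.027 with the mean and -0.023 without wild type 3 and knockout 3, with -0.038 to 0.094 over left-out arrays. L1cam probe set 4566587 turned to -0.031 in usage without those 2 arrays. The cause was not tested. In the fit with a replicate block, the counts of calls were 0 in level and in splicing index usage, diffSplice with the block called 1 member probe set, Chl1 5521503 (adjusted p = 0.048), and lost 5476453 (adjusted p = 0.052), and Shtn1 stayed at -0.29 (adjusted p = 0.37). The labels state no pairing, and deviations of same-numbered arrays correlated at -0.0039 to 0.25 across genes. For 2 of 4 knockout arrays, knockout 1 and knockout 4, the best match was the wild type array of the same number. The numbers were not taken to pair the samples in the main fits.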

Other observations

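Of 12959 other genes tested, those with gene levels most like Shtn1 over the 8 arrays were Ikzf1 (Pearson r = 0.99), a lymphoid and striatal transcription factor gene of the striatal marker list, Cd200 (0.98), an immunoglobulin superfamily membrane glycoprotein, and Ccdc153 (0.97). Spearman's rho was 1 for Ikzf1 and Ccdc153 and 0.98 for Cd200. These genes were picked as the highest of all, over 8 arrays in 2 groups, so the values are a description. Ikzf1 was at 7.46, 7.50, 7.24 and 7.51 in knockout 1 to 4, against 7.93, 7.64, 7.77 and 7.86 in wild type 1 to 4 (log2 fold change -0.37, limma adjusted p = 0.33), so the array order is that of Shtn1.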
